A study of Rattus norvegicus with 28 samples.

Results

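The mitochondrial ribosomal protein genes were taken as every gene of the RNA table whose symbol begins with Mrpl or Mrps, in that capitalization, followed by a digit. The rule found 70 genes among the 11383 listed. All 70 passed the filter on low values (above 0 log2 CPM, the log2 of reads scaled to a common library size, in at least 3 of 6 libraries), which left 11033 genes for testing. By the place of their products, 43 encode proteins of the large subunit and 26 encode proteins of the small subunit. Mrps30 and Mrps18a are counted with the large subunit, where their proteins lie despite their names. The remaining gene, Mrps36, is named Kgd4 in RefSeq, and its product is now known as a component of the 2-oxoglutarate dehydrogenase complex rather than of the ribosome. The genes were spread over 18 chromosomes.

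RNA was sequenced from cardiomyocytes isolated from adult rats (Rattus norvegicus, aged 6 to 8 months) and kept in culture for 48 hours. One group of 3 libraries came from cells that received a null adenovirus, and the other 3 came from cells that received an adenovirus carrying an shRNA against desmin (shDesmin), the intermediate filament protein that anchors sarcomeres, mitochondria and the nucleus. The question put to the RNA is what the loss of desmin changes. The null virus is not described as carrying an shRNA, so the presence of any shRNA differs between the groups too, and the labels give neither strain nor separate cultures for the 3 libraries of a group. Spread between libraries, which may be technical, is therefore all that the p-values measure.

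Mitochondria keep their own ribosome, which translates the few mRNAs of the mitochondrial genome, all of them for membrane subunits of the respiratory chain and the ATP synthase. Its rRNAs come from mitochondrial DNA, whereas all of its proteins are encoded in the nucleus, made in the cytosol and imported. The small subunit binds mRNA and decodes it, the large subunit joins amino acids at its peptidyl transferase centre, and the nascent chain leaves through a tunnel that opens at the inner membrane. In heart muscle, where respiration supplies most ATP, inherited defects of several of these proteins cause cardiomyopathy in humans.

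Des was at 12.57 ± 0.03 log2 CPM in null RNA and at 9.18 ± 0.12 in shDesmin RNA (SD, n = 3 each), lower in all 3 shDesmin libraries. The libraries held 8724543 to 10908458 reads over the listed genes, and a member gene rested on 88 to 2605 reads per library. Marker levels and changes are given on the authors' scaling unless stated. All 6 cardiomyocyte markers were listed in both groups, and their summed level ranged from 13330 to 17320 CPM in null and from 40490 to 47910 CPM in shDesmin libraries. Marker sums ranged from 111 to 187 CPM in null and from 225 to 337 CPM in shDesmin libraries for endothelial cells (4 of 5 genes listed), from 2.94 to 9.81 and from 15.4 to 24.7 CPM for fibroblasts (3 of 5), and from 176 to 258 and from 407 to 590 CPM for smooth muscle and pericytes (4 of 5). Macrophage markers, with 2 of 5 listed, were at 16.1 to 17.1 CPM in null and at 2.87 to 3.77 CPM in shDesmin libraries. Members of a list did not all move alike: of the macrophage genes Csf1r fell (log2 change -3.17) and Cd68 was not called (0.19), and among the endothelial genes Kdr fell (-0.55) while the other 3 rose. Fibroblast genes rested on few reads, down to 4 for Col1a1 in null replicate 3. Under plain library totals, 0 of 4 endothelial markers were called higher and 1 lower (median 0.055). There, 1 of 3 fibroblast, 1 of 4 smooth muscle and pericyte, and all 6 cardiomyocyte markers were called higher. Mitochondrially encoded genes took 24.7%, 30.6% and 34.5% of listed reads in null replicates 1 to 3, and 35.01%, 39.1% and 38.96% in shDesmin replicates 1 to 3. The part of these differences in the results was not tested.

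Some libraries stood apart for these genes. Null replicate 1 was the lowest of the 3 null libraries for 61 of 70 members, against 40.4% of all tested genes. Null replicate 3 was the highest null library for 58 members, and for 3478 of the 11033 tested genes. Among the shDesmin libraries, replicate 2 was the highest for 59 members, and for 3878 of the tested genes. Without shDesmin replicate 2, 31 members were called higher and 3 lower. Counts and values without null replicate 1 are given below where leaving it out changed a call or moved a called change by over 1.5 times.

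On the authors' scaling, most mitochondrial ribosomal protein genes were higher in shDesmin cells, by amounts that were mostly well below 2-fold. Of the 70 genes, 38 rose and 3 fell (limma, adjusted p under 0.05), and 29 did not pass the test. Over all tested genes, 27.5% were called higher and 31.4% lower. The median log2 change was 0.38 for the members, with quartiles of 0.11 and 0.68, and -0.04 for all tested genes. A rise of at least 2-fold was called for 3 members, Mrps36, Mrpl40 and Mrpl42, and no member fell that far. Among all 11033 tested genes, 1169 were called higher and 1581 lower by at least 2-fold. In bulk RNA, fewer cells of a type and less RNA per cell cannot be told apart.

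The direction of the gene group depended on the scaling. The scale factors implied by the deposited values were 1.42, 1.27 and 1.17 for the null libraries and 0.83, 0.73 and 0.78 for the shDesmin libraries. Scaling the same reads by plain library totals moved the median change of all genes by -0.71, and the members then had a median of -0.34. There, 4 members were called higher and 39 lower, beside 7.27% and 62.5% of all tested genes. With totals that leave out mitochondrially encoded genes, the shift of all genes was -0.54 and the members' median was -0.17. In that setting 7 members were higher and 27 lower, beside 10.4% and 56.7% of all tested genes. Centring each library on its median moved all genes by 0.18 and gave the members a median of 0.56. On the authors' scaling the members' median lay 0.42 above that of all tested genes, and 60 of 70 members lay above the median gene. Scalings by 1 number per library cannot move these 2 values. Quantile normalization, which can, gave 0.31 and 58, with 36 members higher and 4 lower, beside 28.2% and 28.9% of all tested genes. Without null replicate 1, the members' excess over all genes was 0.31.

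The same dependence is visible in the raw shares of reads. The 70 genes together took 0.489%, 0.515% and 0.512% of listed reads in null replicates 1 to 3, and 0.434%, 0.440% and 0.413% in shDesmin replicates 1 to 3, so by this measure all shDesmin libraries were lower. As a share of reads from nuclear genes, the values were 0.649%, 0.741% and 0.782% in null libraries and 0.667%, 0.723% and 0.677% in shDesmin libraries, and the groups overlapped. On the authors' scaling, the summed level was 3453, 4058 and 4390 CPM in null and 5202, 6019 and 5279 CPM in shDesmin libraries, and all shDesmin libraries were higher. A measure that no scaling by library can move is the gap between the median member and the median gene within a library. It was 1.37, 1.60 and 1.78 log2 units in null replicates 1 to 3 and 2.03, 2.27 and 1.99 in shDesmin replicates 1 to 3, without overlap.

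**Figure D1:**
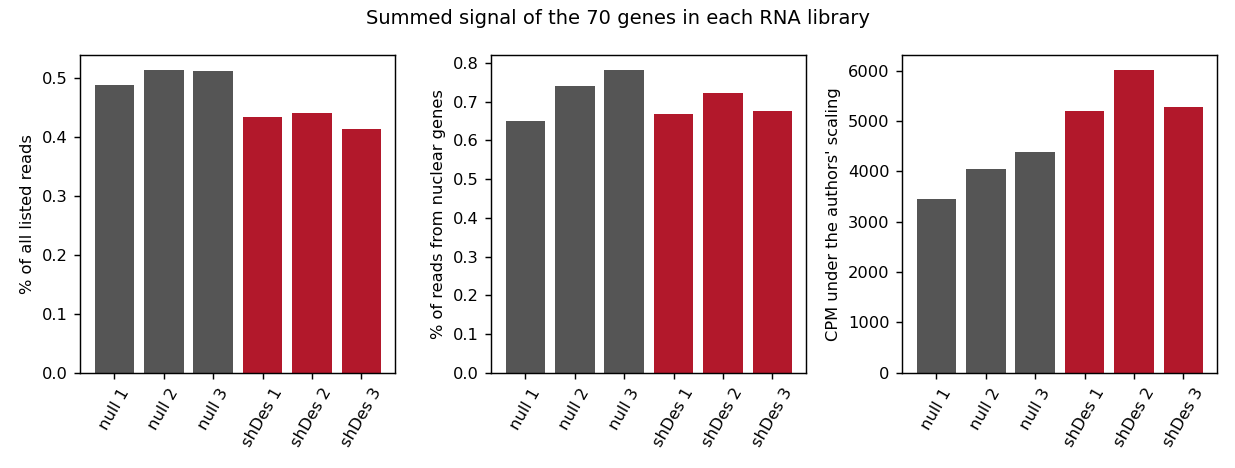
Summed signal of the 70 mitochondrial ribosomal protein genes in each of the 6 RNA libraries (1 bar per library, gray null, red shDesmin), as a percentage of all listed reads, as a percentage of reads from nuclear genes, and in CPM on the authors' scaling. The shDesmin bars are lower in the first panel, overlap the null bars in the second and are higher in the third.

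The 2 groups of libraries did not overlap for 43 members, 40 of them higher and 3 lower in shDesmin RNA, where 29.8% and 35.1% of all tested genes were apart in those directions. With 3 libraries a group, an exact two-sided permutation test cannot go below p = 0.1, which each of these 43 genes reached. The members were well expressed, with a median level at percentile 79.8 of all tested genes. Among the 1619 tested genes whose level lay within the members' quartiles, 598 were higher and 425 lower, with a median log2 change of 0.11.

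**Figure D2:**
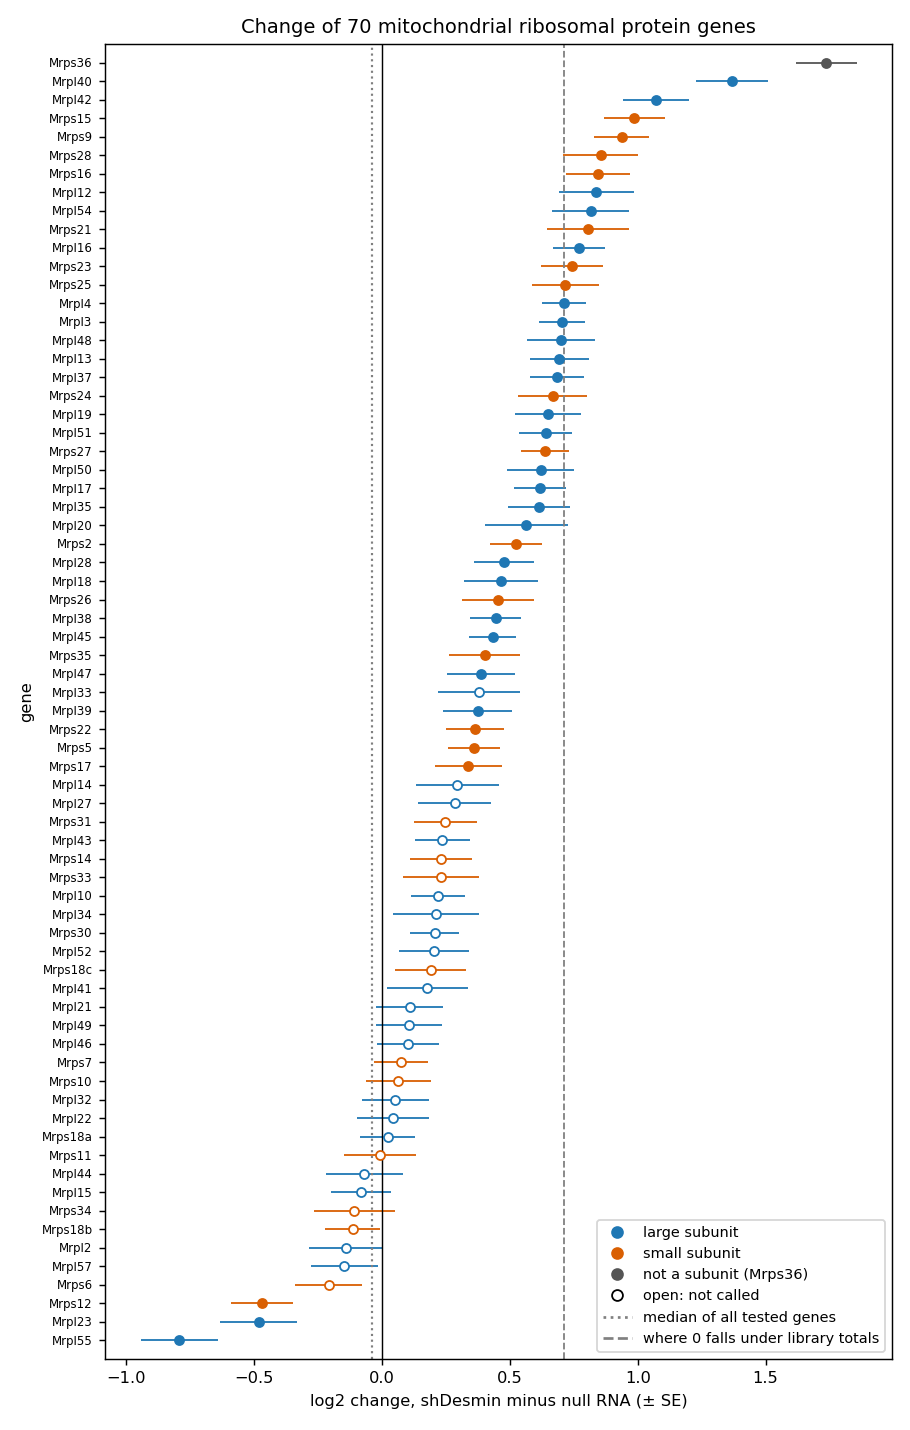
Log2 change of each of the 70 genes (shDesmin minus null, points with the standard error from limma, n = 3 libraries a group), ordered by size, with filled points for genes called at an adjusted p under 0.05. The dotted line is the median of all tested genes at -0.04, and the dashed line at 0.71 marks where no change would lie under library totals, with 14 genes to its right.

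The largest rise belonged to the gene whose product is not a ribosomal protein. Mrps36 (ENSRNOG00000061213, rn6 chromosome 2, 30739855 to 30748428) stood at 5.52, 5.65 and 5.76 log2 CPM in null replicates 1 to 3 and at 7.26, 7.63 and 7.25 in shDesmin replicates 1 to 3. The groups were far apart compared with the spread within them, and the level was 3.33-fold higher (log2 change 1.74, SE 0.12, limma adjusted p = 6.7e-07). Without Mrps36, 37 of 69 genes were higher and 3 lower, and the median was 0.37.

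Among true subunits, Mrpl40 and Mrpl42 rose most, both of them proteins of the large subunit without a bacterial relative. Mrpl40 (ENSRNOG00000049686, chromosome 11, 86276616 to 86282451), part of the central protuberance that faces the small subunit, was at 3.11, 3.00 and 2.97 log2 CPM in null and at 4.29, 4.50 and 4.39 in shDesmin libraries. All shDesmin values lay above all null values, by 2.58-fold on average (log2 change 1.37, SE 0.14, limma adjusted p = 1.1e-05). Its reads numbered 112, 88 and 99 in null and 156, 151 and 161 in shDesmin libraries, so they were higher even before scaling. Mrpl42 (ENSRNOG00000042740, chromosome 7, 36573654 to 36597462) was at 4.72, 5.03 and 5.12 log2 CPM in null and at 5.89, 6.18 and 6.00 in shDesmin libraries. Again no library of one group reached the other, and the level was 2.10-fold higher (log2 change 1.07, SE 0.13, limma adjusted p = 3.5e-05). Reads of these 3 leading genes may be shared with copies: the RefSeq gene table names 4 pseudogenes or like copies of Mrps36, 2 of Mrpl40 and 3 of Mrpl42, and how multiply mapped reads were counted is not given in the sources used here. Such copies are named for 22 members in all, whose median change was 0.36, and for the other 48 members the median was 0.38.

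Of the 5 next largest rises, 4 were in proteins of the small subunit, which decodes the mRNA. Mrps15 (chromosome 5, 144054452 to 144065045), a relative of the bacterial protein that binds rRNA early in assembly, was at 6.60, 6.78 and 6.99 log2 CPM in null and at 7.66, 7.96 and 7.71 in shDesmin libraries. The groups did not overlap, and the level was 1.98-fold higher (log2 change 0.99, SE 0.12, limma adjusted p = 3.6e-05). Mrps9 (chromosome 9, 49647257 to 49704828), a protein of the subunit head, was at 6.38, 6.56 and 6.63 in null and at 7.35, 7.63 and 7.40 in shDesmin libraries. Its groups were apart as well, with a 1.91-fold higher level (log2 change 0.94, SE 0.11, limma adjusted p = 2.4e-05). Mrps28 (chromosome 2, 95045034 to 95173753), a relative of bacterial ribosomal protein S1, was at 5.60, 5.96 and 6.22 in null, a wide spread, and at 6.66, 6.96 and 6.74 in shDesmin libraries. The lowest shDesmin library still lay above the highest null library (log2 change 0.85, SE 0.15, limma adjusted p = 0.00046). Mrps16 (chromosome 15, 4351292 to 4353694), of a bacterial-type protein family, was at 5.42, 5.58 and 5.89 in null and at 6.44, 6.59 and 6.39 in shDesmin libraries, also without overlap (log2 change 0.84, SE 0.13, limma adjusted p = 0.00017).

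The last of the 8 largest rises was in Mrpl12 (chromosome 10, 109658032 to 109662535), the large subunit stalk protein that recruits translation factors to the ribosome. It was at 7.03, 7.47 and 7.60 log2 CPM in null and at 8.05, 8.42 and 8.15 in shDesmin libraries. Every shDesmin library was above every null library, by 1.79-fold on average (log2 change 0.84, SE 0.15, limma adjusted p = 0.00049). Under library totals the calls of Mrps36 (1.03), Mrpl40 (0.66), Mrpl42 (0.36) and Mrps15 (0.27) remained higher, while Mrps9 (0.23), Mrps28 (0.14), Mrps16 (0.13) and Mrpl12 (0.13) were no longer called. Mrps36, Mrpl40, Mrpl42 and Mrps15 were called higher in all settings tried.

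**Figure D3:**
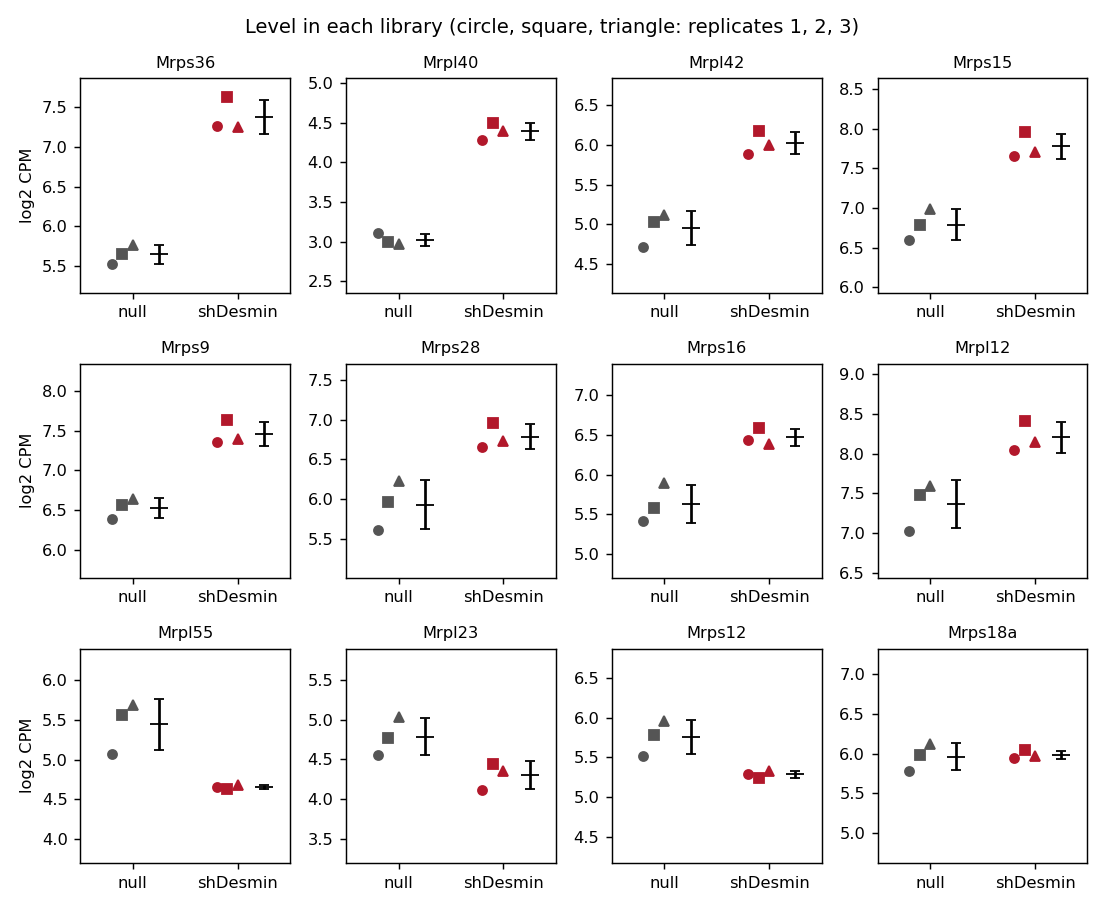
Level of 12 genes in log2 CPM in each library (gray null, red shDesmin, with a circle, square and triangle for replicates 1 to 3, and bars for the mean and SD of 3 libraries): the 8 with the largest rise, the 3 that fell, and Mrps18a. All panels span the same range of log2 units. In the first 8 panels and in those of Mrpl55, Mrpl23 and Mrps12 the groups are apart, while those of Mrps18a overlap.

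The 3 genes that fell belong to different places on the ribosome. Mrpl55 (chromosome 10, 45552795 to 45555943), of the large subunit, was at 5.08, 5.57 and 5.69 log2 CPM in null and at 4.65, 4.62 and 4.68 in shDesmin libraries. The shDesmin values were close together and all below the null values, by 1.73-fold on average (log2 change -0.79, SE 0.15, limma adjusted p = 0.00089). Mrpl55 was called lower in all settings tried. Mrpl23 (chromosome 1, 215701544 to 215709313), whose bacterial relative sits at the exit of the peptide tunnel, was at 4.56, 4.77 and 5.03 in null and at 4.11, 4.44 and 4.36 in shDesmin libraries. The gap between the groups was narrow (log2 change -0.48, SE 0.15, limma adjusted p = 0.016). Mrps12 (chromosome 1, 86920680 to 86923575), of the protein family that shapes the decoding centre and carries streptomycin resistance mutations in bacteria, was at 5.52, 5.79 and 5.96 in null and at 5.29, 5.25 and 5.33 in shDesmin libraries. Here too all shDesmin libraries were lower (log2 change -0.47, SE 0.12, limma adjusted p = 0.0059). With libraries centred on their medians, the changes of Mrps12 (-0.29) and Mrpl23 (-0.30) no longer passed the test, and Mrpl23 also lost its call without null replicate 3 or without shDesmin replicate 1.

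Without null replicate 1, the members called higher went from 38 to 34, those called lower from 3 to 7, and the members' median from 0.38 to 0.28. The 4 genes no longer called higher were Mrps35 (0.27), Mrpl47 (0.26), Mrpl39 (0.30) and Mrps17 (0.21). The 4 genes newly called lower were Mrps18b (-0.21), Mrpl2 (-0.29), Mrpl57 (-0.30) and Mrps6 (-0.36), and with all libraries these had log2 changes of -0.12, -0.14, -0.15 and -0.21 that were not called. Of the 41 members called with all libraries, 2 changed by over 1.5 times without null replicate 1, Mrpl18 (0.47 to 0.30, still called) and Mrps17. Of the 29 not called, 23 did, for instance Mrps14 (0.23 to 0.11) and Mrps18c (0.19 to 0.04).

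Genes of both subunits were among those that rose and those that fell. Of 43 large subunit genes, 22 rose and 2 fell, with a median log2 change of 0.38, which was -0.33 under library totals. Of 26 small subunit genes, 15 rose and 1 fell, with a median of 0.36, which was -0.35 under library totals. Sorted by descent, proteins of families shared by all ribosomes rose in 12 and fell in 2 of 23 genes (median 0.34). Those classed here as bacterial-type families rose in 9 and fell in 0 of 16 (median 0.52), and those classed as particular to mitochondria rose in 16 and fell in 1 of 30 (median 0.37). These shares were read against the 27.5% of all genes called higher, and no difference between the classes was tested. The counts depend on how genes were classed: Mrpl55, which fell, was put with the mitochondrial class. So were Mrps18a and Mrps18b, although they are relatives of bacterial S18.

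Within the large subunit, the stalk and the peptidyl transferase core had medians of 0.81 and 0.70 on the authors' scaling, and of 0.10 and -0.01 under library totals. Around the catalytic centre, Mrpl16 (0.77), Mrpl4 (0.71) and Mrpl3 (0.70) rose, while Mrpl27 (0.28) and Mrpl2 (-0.14) did not pass the test. On the stalk, Mrpl12 (0.84) and Mrpl54 (0.81) rose, and Mrpl10 at its base had a change of 0.22 that was not called although its groups did not overlap. Of 5 central protuberance genes, Mrpl40, Mrpl48 (0.70) and Mrpl38 (0.44) rose. Around the tunnel exit, 4 of 7 genes rose and 1 fell. Mrpl17 (0.62), Mrpl45 (0.43), which tethers the ribosome to the inner membrane, Mrpl47 (0.39) and Mrpl39 (0.37) were higher, Mrpl23 was lower, and Mrpl22 (0.04) and Mrpl44 (-0.07) were not called.

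In the small subunit head, 3 of 8 genes rose. These were Mrps9 (0.94), Mrps24 (0.67) and Mrps35 (0.40), while Mrps31 (0.25), Mrps14 (0.23), Mrps33 (0.23), Mrps7 (0.07) and Mrps10 (0.06) did not pass the test. Outside the head, Mrps21 (0.81), Mrps23 (0.74), Mrps25 (0.72), Mrps27 (0.64), an RNA-binding pentatricopeptide repeat protein, and Mrps2 (0.52) rose, while Mrps34 (-0.11) and Mrps6 (-0.21) were not called. Among the 38 genes called higher, 29 kept their call in every setting that did not scale by library totals. The 9 others, with changes of 0.34 to 0.56, were Mrpl20, Mrpl18, Mrps26, Mrpl45, Mrps35, Mrpl47, Mrpl39, Mrps22 and Mrps17.

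The 3 mammalian relatives of bacterial ribosomal protein S18, each of which sits on a different ribosome position, did not pass the test in either direction. Mrps18a (chromosome 9, 17238385 to 17254949) was at 5.78, 5.99 and 6.12 log2 CPM in null and at 5.94, 6.05 and 5.97 in shDesmin libraries (log2 change 0.02, SE 0.11). Mrps18b (chromosome 20, 3344870 to 3350927) was at 7.30, 7.51 and 7.68 in null and at 7.35, 7.47 and 7.32 in shDesmin libraries (log2 change -0.12, SE 0.11). Mrps18c (chromosome 14, 10440691 to 10446909) was at 4.46, 4.91 and 4.91 in null and at 4.90, 4.99 and 4.97 in shDesmin libraries (log2 change 0.19, SE 0.14). In all 3 genes the groups overlapped, with null replicate 1 the lowest library.

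Other genes with the smallest changes were Mrps11, of the family that lines the mRNA path on the platform of the small subunit, and Mrpl22 and Mrpl32 of the large subunit. Mrps11 was at 4.45, 4.77 and 4.81 log2 CPM in null and at 4.48, 4.83 and 4.71 in shDesmin libraries (log2 change -0.01, SE 0.14). Mrpl22 was at 4.80, 5.17 and 5.31 in null and at 5.02, 5.25 and 5.15 in shDesmin libraries (log2 change 0.04, SE 0.14). Mrpl32, which a protease of the inner membrane matures before assembly, was at 4.66, 4.99 and 5.11 in null and at 4.97, 4.99 and 4.94 in shDesmin libraries (log2 change 0.05, SE 0.13). Their groups overlapped, and null replicate 1 was again the lowest library. Under library totals these genes were called lower, at -0.72, -0.67 and -0.66.

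Among 4 members known as human cardiomyopathy genes, 2 rose on the authors' scaling. Mrpl3, of the catalytic core, was at 6.66, 6.54 and 6.58 log2 CPM in null and at 7.26, 7.40 and 7.24 in shDesmin libraries. The groups were apart by a wide margin, and null replicate 1 was here the highest of its group (log2 change 0.70, SE 0.09, limma adjusted p = 5.7e-05). Mrps22 was at 5.34, 5.50 and 5.61 in null and at 5.76, 6.00 and 5.76 in shDesmin libraries, a smaller gap (log2 change 0.36, SE 0.11, limma adjusted p = 0.017). Mrpl44, at 4.77, 4.83 and 5.07 in null and at 4.59, 5.12 and 4.76 in shDesmin libraries, overlapped between groups (log2 change -0.07, SE 0.15). Mrps14, at 5.84, 6.09 and 6.30 in null and at 6.23, 6.41 and 6.29 in shDesmin libraries, overlapped as well (log2 change 0.23, SE 0.12, limma adjusted p = 0.12). Under library totals the changes of Mrpl3 and Mrps22 were -0.01 and -0.35.

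A further 3 genes lie just outside the rule because the table spells their symbols in lower case. Of these, mrpl9 was called higher (log2 change 0.49, SE 0.10, limma adjusted p = 0.0015), and mrpl11 (0.15) and mrpl24 (0.01) were not called. With them included, 39 of 73 genes were higher and 3 lower, with a median of 0.37. Another 7 members overlap a listed gene, among them Mrpl13 with Mtbp and Mrpl47 with Actl6a, and because the strand used in counting is not given, reads of such pairs cannot be told apart. Their median change was 0.11, against 0.40 for the other 63.

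Parts of the mitochondrial translation system outside this gene family did not move as a block. The counts that follow are on the authors' scaling and stand beside 27.5% higher and 31.4% lower among all genes. Of 6 ribosome proteins with other symbols, 2 rose, the RNA-binding protein gene Ptcd3 (0.55) and Ict1 (0.65), which encodes a peptidyl-tRNA hydrolase built into the large subunit, and Aurkaip1 (-0.31) fell. For this list, library totals gave 0 higher and 4 lower, and centring on library medians gave 4 higher and 0 lower. Of 24 assembly factors, 3 rose and 9 fell, with a median of -0.19. The balance of these calls depended on the scaling, with 9 higher and 5 lower after centring on library medians, 6 and 5 under quantile normalization, and 1 and 19 under library totals. Of all tested genes, 36.0% were higher and 24.45% lower after centring, 28.2% and 28.9% under quantile normalization, and 7.27% and 62.5% under library totals. The median of the assembly factors relative to all tested genes was -0.15 on the authors' scaling, after centring and under library totals. It was -0.10 under quantile normalization. The falls were led by Dhx30, Ddx28 and Fastkd2, which act on ribosomal RNA in mitochondrial RNA granules. Ddx28, a helicase, was at 3.51, 3.89 and 3.71 log2 CPM in null and at 2.15, 1.54 and 1.19 in shDesmin libraries. All shDesmin libraries were below all null libraries (log2 change -2.08, SE 0.25, limma adjusted p = 3.6e-05), and the same held for Fastkd2 (-1.27) and Dhx30 (-0.86). Mettl15, which methylates the rRNA of the small subunit, was at 1.36, 1.31 and 1.00 in null and at 2.65, 2.99 and 2.72 in shDesmin libraries, and it rose together with Rbfa (0.77) and Trub2 (0.57). Its groups were apart (log2 change 1.56, SE 0.23, limma adjusted p = 0.00015).

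Of 15 factors that drive translation, 8 were higher and 1 lower, with a median of 0.33, which was -0.38 under library totals. Oxa1l, the insertase that receives nascent chains at the inner membrane, was at 6.09, 5.99 and 6.24 log2 CPM in null and at 7.45, 7.50 and 7.45 in shDesmin libraries. The 2 groups lay far apart (log2 change 1.36, SE 0.09, limma adjusted p = 7.4e-07). The elongation factor genes Gfm1 (0.90) and Tsfm (0.86) rose as well, and the initiation factor gene Mtif3 fell (-0.73). Of 18 mitochondrial aminoacyl-tRNA synthetases and their partners, 9 rose, led by Gatb (1.00), and 4 fell, among them Vars2 (-0.96) and Pars2 (-1.03), with a median of 0.25 that was -0.46 under library totals. In mitochondrial transcription, Tfam (0.35), which packages the mitochondrial genome, and Tfb2m (0.27) were higher, and Polrmt (-0.81), the RNA polymerase, Tefm (-0.61) and Mterf1 (-1.23) were lower. Neither rise was called under quantile normalization (0 of 6 genes higher and 3 lower) or under library totals (0 and 6).

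**Figure D4:**
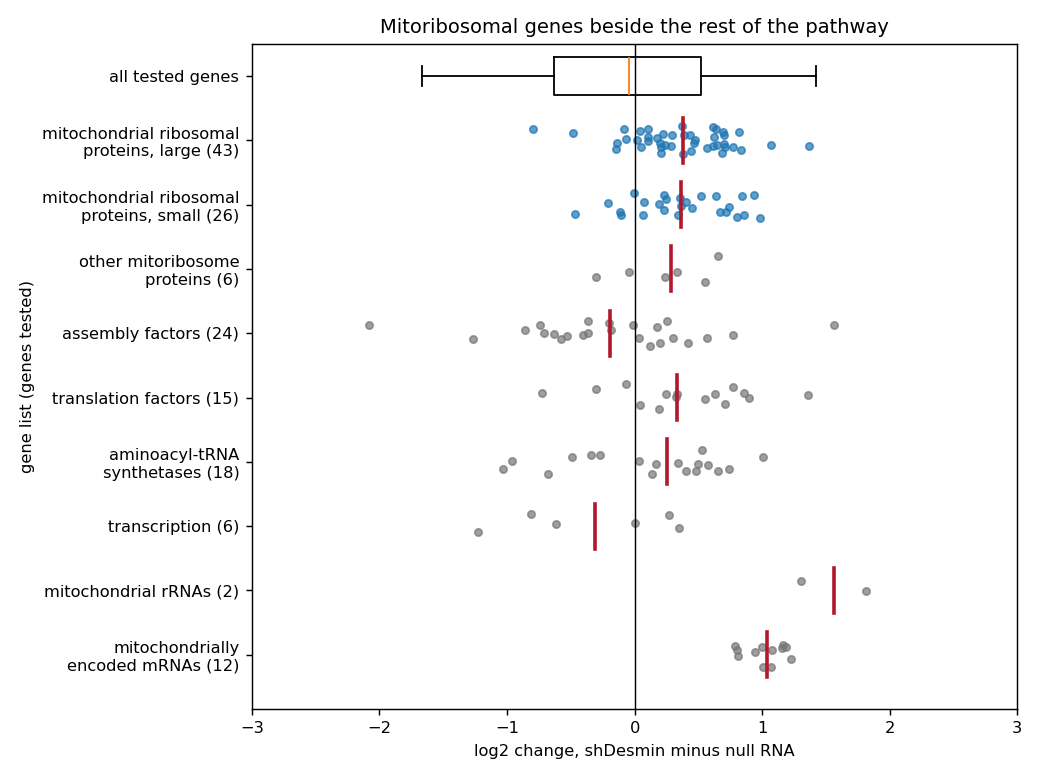
Log2 change (shDesmin minus null, authors' scaling) of single genes (points) in the large and small subunit and in other lists of the mitochondrial translation system, with the number of genes tested and the median as a red bar; the box for all tested genes spans the quartiles and its whiskers the 5th to 95th percentiles. The subunits have medians of 0.38 and 0.36 and assembly factors one of -0.19, and all of these are lower by 0.71 under library totals.

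RNAs made inside mitochondria, the partners and substrates of these proteins, were higher on the authors' scaling, and less so under library totals. All 12 mitochondrially encoded mRNAs tested rose, with a median log2 change of 1.04, or 0.33 under library totals, where 8 were called higher. Quantile normalization left 2 higher and 2 lower, with a median of 0.01. It gives every library the same set of values by rank, and the level of these mRNAs had a median percentile of 99.95. Genes at the top ranks can hardly change under it, so it cannot decide whether they rose. The 2 rows annotated as mitochondrial rRNA, at positions 68 to 1025 and 1094 to 2664 of the mitochondrial genome, rose by 1.31 and 1.82. Neither was called under quantile normalization, where their median was 0.10 and the same limit holds (median percentile of level 99.9). Nuclear genes of oxidative phosphorylation rose in 72 of 73 cases, with a median of 1.08, or 0.37 under library totals. Cytosolic ribosomal protein genes, whose products build the other ribosome of the cell, rose in 42 and fell in 3 of 66 cases, with a median of 0.54, or -0.17 under library totals. Relative to all tested genes these medians were 1.12 for oxidative phosphorylation, 0.58 for cytosolic ribosomal proteins and 0.42 for mitochondrial ribosomal proteins. Under quantile normalization they were 0.44, 0.34 and 0.31, with 49 oxidative phosphorylation genes higher and 1 lower, and 25 cytosolic ribosomal protein genes higher and 4 lower. In the same order, the lists had median levels at percentiles 98.47, 87.95 and 79.78. Quantile normalization limits changes most near the top ranks, so it does not treat these lists alike. The differences between these lists were not tested.

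Promoters of genes for mitochondrial ribosomal proteins were read in RefSeq windows of the GRCr8 build, from 250 bases before to 50 bases after the start site, and 56 of 70 members matched. GRCr8 is not the build of the RNA table (rn6), so positions given in the 2 builds are not comparable. The letters AAGATGGC, the core of sites for the zinc finger factor YY1, stood on either strand of 14 of the 56 member promoters, in 5.96% of 8584 promoters of tested genes and in 3.17% of 33469 promoters in the table. CCGGAAG, bound by ETS factors such as GABPA, stood in 30.4% of member promoters, 19.3% of those of tested genes and 8.75% of all, and GCGCATGC, bound by NRF1, in 8.93%, 5.58% and 2.47%. The E-box CACGTG was in 7.14%, 9.97% and 6.42%, TGACGTCA of CREB in 1.79%, 3.19% and 1.83%, and TATAAA in 12.5%, 6.55% and 14.2%. The SP1 letters GGGCGG were in 28 of the 56 member promoters, 64.3% of those of tested genes and 33.1% of all. TCAAGGTCA, the letters of ERR sites, was in none of the 56 windows and in 0.245% of those of tested genes. GCGCATGC on opposite strands can overlap itself. A match is a description of letters and not a measured binding site.

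The YY1 letters sat in a shared place. Of the 14 sites in member promoters, 11 (78.6%) read AAGATGGC on the coding strand after the start site, where 257 of 523 sites (49.1%) did so over tested genes. The following windows, from RefSeq on GRCr8 and written 5′ to 3′ on the strand of the gene, are shown to let these places be compared, with the YY1 letters in capitals, for 3 genes that rose, then Mrpl46, Mrps7 and Mrps18a, which did not pass the test.
Mrpl42 (chr7:32028485-32028514, minus strand): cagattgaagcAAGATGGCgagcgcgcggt
Mrpl37 (chr5:127074943-127074972, minus strand): ctgcccgggcaAAGATGGCggcgtccaggt
Mrps27 (chr2:32474222-32474251, plus strand): tggtacgctccAAGATGGCggcccccatgg
Mrpl46 (chr1:142116988-142117017, minus strand): gggaagacggaAAGATGGCggcgcccatag
Mrps7 (chr10:101342637-101342666, plus strand): tgatagcggccAAGATGGCtgcccccgcac
Mrps18a (chr9:22367362-22367391, minus strand): ggtgtgttcccAAGATGGCggccctcaggg
The letters began 20, 7, 30, 25, 7 and 1 bases after the start site in these genes, in the order printed. Genes that rose and genes that did not pass the test both carried the letters in this place. Of 14 members with AAGATGGC, 5 rose and 0 fell, with a median change of 0.10. Of the 42 with a promoter and without these letters, 24 rose and 2 fell, with a median of 0.38. Among all tested genes 27.5% were higher and 31.4% lower. The difference between members with and without the letters was not tested.

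Windows with ETS letters are shown for the 3 genes of the catalytic core that carry them, Mrpl4 (0.71) and Mrpl3 (0.70), which rose, and Mrpl27 (0.28), which was not called, and for Mrpl23, which fell. The 7 letters are in capitals, as CCGGAAG or as its reverse complement.
Mrpl4 (chr8:27815760-27815788, plus strand): tcattggtttgCTTCCGGagcccgctctc
Mrpl3 (chr8:114548969-114548997, plus strand): tgagaaacggaCCGGAAGtggctcagctg
Mrpl27 (chr10:80092273-80092301, plus strand): gtacgcaagacCCGGAAGtagatctatcc
Mrpl23 (chr1:207116852-207116880, plus strand): tagcgcggcctCCGGAAGcgagggggcgc
The letters lie next to the start site in Mrpl4 and Mrpl3, 61 bases before it in Mrpl27 and 67 bases before it in Mrpl23. Of 17 members with CCGGAAG, 7 rose and 1 fell, with a median of 0.28, and of 39 without it 22 rose and 1 fell, with a median of 0.37. This difference was not tested either, and the shares among all tested genes were 27.5% higher and 31.4% lower.

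Genes of factors that bind such letters, and of their coactivators, moved in both directions. Gabpa, the DNA-binding ETS subunit, was at 4.78, 4.35 and 4.28 log2 CPM in null and at 5.76, 5.59 and 5.74 in shDesmin libraries, without overlap (log2 change 1.23, SE 0.14, limma adjusted p = 2.4e-05). Yy1 had a smaller change and overlapping groups (log2 change 0.42, SE 0.15, limma adjusted p = 0.036), and Nrf1 did not pass the test (-0.22). Among coactivators, Ppargc1a was higher in all shDesmin libraries than in any null library (log2 change 1.15, SE 0.23, limma adjusted p = 0.0013). Its relative Pprc1 was at 5.92, 6.09 and 6.04 in null and at 4.47, 3.90 and 4.34 in shDesmin libraries, where all were lower (log2 change -1.78, SE 0.15, limma adjusted p = 2.2e-06). Over all 9 regulators, 5 rose and 1 fell on the authors' scaling, 3 and 2 under quantile normalization, and 1 and 5 under library totals, where the median was -0.47.

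Few of these genes lie at the nuclear lamina. Lamin B ChIP gave a list of lamina-associated domains in cells with a scrambled shRNA, made from 3 pooled replicates, and no such list was used for shDesmin cells. Of 70 members, 5 (7.14%) lay at least 50% inside a domain, against 465 of 11355 listed genes with a nuclear position (4.10%). These were Mrpl3, Mrpl13, Mrpl50, Mrps30 and Mrpl32, each of them entirely inside. Their log2 changes were 0.70, 0.69, 0.62, 0.21 and 0.05, of which the first 3 passed the test. The median distance to the nearest domain was 977.5 kilobases for members and 820.0 for all listed genes.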

How the data were processed

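The authors deposited log2 values for 6 RNA libraries (75 bp single-end reads). Per the submitters' processing notes, featureCounts, edgeR, limma, STAR 2.6.0c and Trimmomatic 0.32 were used, in roles not stated, with build rn6. Each value is the log2 of a whole read count plus 0.5 times a step fixed per library, plus a shared constant (100% whole within 0.001). The constant, 5.7035, was removed to give log2 CPM, and folds of low genes are understated. Limits from counts cover counting error only. P-values, a signed fold score and a t score stand in the authors' deposited table, per the file headers, and served as an alternative only. Domain starts and ends (rn6) come from 3 pooled ChIP replicates, per the series' design text.

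Groups came from the labels. Over 11033 genes, group was the only term of a limma 3.58.1 fit (R 4.3.3, trended eBayes) with the Benjamini-Hochberg adjustment, two-sided, at 0.05. The fit was tested on simulated data. Members, lists and naming rules were chosen with earlier results of these data known. Full values were given for the 8 largest rises, the falls, the 4 smallest changes and genes chosen for their roles; levels per kilobase were not used here, so levels are not compared between genes. Splits by copies, overlap, level and divergent partner were added after seeing the data. RefSeq tables (GRCr8) gave promoters and copies. No library repeated another within counting error (chi-square 4.96 to 36.7 for each degree of freedom). Calculations ran in Python 3.11.15 with pandas 2.3.3, numpy 2.4.6 and scipy 1.17.1, and plots in matplotlib 3.10.9.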

Additional observations from a re-analysis of the deposited data

How the results depend on the processing

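No call or direction of a member changed without the filter, with a mean of at least 3 log2 CPM, a pseudocount of 2 CPM, voom weights or the authors' deposited table (38 members higher and 3 lower there). With no trend in eBayes 8 of 70 members lost their call, and at an adjusted p of 0.01 9 did, which left 1 large subunit gene and 5 genes of the other mitoribosome, assembly and translation lists lower. A mean of at least 3 log2 CPM left 2237 genes lower among fewer genes tested. With libraries centred on their medians, 1 member, 1 large and 0 small subunit genes were lower, and 24 genes of the other lists were higher and 6 lower. Quantile normalization left 2 small subunit genes and 7 genes of the other lists lower, and library weights gave 5 members and 2 small subunit genes lower. Library totals gave, over all genes, 802 higher and 6892 lower with a median of -0.75. They gave 4 members higher and 39 lower with a median of -0.34, 2 and 24 large subunit genes (median -0.33), 1 and 15 small subunit genes (-0.35), and 2 and 30 genes of the other lists (-0.54). Totals without mitochondrially encoded genes gave 1151 genes higher and 6253 lower with a median of -0.58. They gave 7 and 27 members (-0.17), 3 and 17 large (-0.17), 3 and 10 small subunit genes (-0.18), and 4 and 25 of the other lists (-0.37). These 2 settings divide all genes of a library by a different number, which is all that differs from the authors' scaling. The log2 changes that turned negative with library totals were Mrpl3 -0.0072, Mrpl48 -0.0097, Mrpl13 -0.018, Mrpl37 -0.027, Mrps24 -0.044, Mrpl19 -0.062, Mrpl51 -0.071, Mrps27 -0.074, Mrpl50 -0.091, Mrpl17 -0.093, Mrpl35 -0.097, Mrpl20 -0.15, Mrps2 -0.19, Mrpl28 -0.23, Mrpl18 -0.25, Mrps26 -0.26, Mrpl38 -0.27, Mrpl45 -0.28, Mrps35 -0.31, Mrpl47 -0.33, Mrpl33 -0.33, Mrpl39 -0.34, Mrps22 -0.35, Mrps5 -0.35, Mrps17 -0.37, Mrpl14 -0.42, Mrpl27 -0.43, Mrps31 -0.46, Mrpl43 -0.48, Mrps14 -0.48, Mrps33 -0.48, Mrpl10 -0.49, Mrpl34 -0.50, Mrps30 -0.51, Mrpl52 -0.51, Mrps18c -0.52, Mrpl41 -0.53, Mrpl21 -0.60, Mrpl49 -0.61, Mrpl46 -0.61, Mrps7 -0.64, Mrps10 -0.65, Mrpl32 -0.66, Mrpl22 -0.67 and Mrps18a -0.69. Those that turned negative with totals without mitochondrially encoded genes, for members called under that or the authors' scaling, were Mrps2 -0.020, Mrpl28 -0.066, Mrpl18 -0.078, Mrps26 -0.091, Mrpl38 -0.10, Mrpl45 -0.11, Mrps35 -0.14, Mrpl47 -0.16, Mrpl39 -0.17, Mrps22 -0.18, Mrps5 -0.18, Mrps17 -0.21, Mrps31 -0.30, Mrpl43 -0.31, Mrps14 -0.31, Mrpl10 -0.32, Mrps30 -0.34, Mrpl52 -0.34, Mrps18c -0.35, Mrpl41 -0.37, Mrpl21 -0.44, Mrpl49 -0.44, Mrpl46 -0.44, Mrps7 -0.47, Mrps10 -0.48, Mrpl32 -0.49, Mrpl22 -0.50 and Mrps18a -0.52. Leaving out 1 library at a time gave 2651 to 3193 genes higher and 2988 to 3418 lower with medians of -0.05 to -0.03, and 31 to 40 members higher and 2 to 7 lower with medians of 0.28 to 0.45. It gave 19 to 23 large subunit genes higher and 1 to 4 lower (0.26 to 0.46), 11 to 16 small subunit genes higher and 1 to 3 lower (0.28 to 0.44), and 12 to 15 genes of the other lists higher and 7 to 13 lower (0.11 to 0.18). Members lower were 7 without null replicate 1, large subunit genes lower were 4 without it and 1 without null replicate 3 or shDesmin replicate 1, small subunit genes lower were 3 without null replicate 1, and genes of the other lists lower were 7 without shDesmin replicate 1. Deviations from the group means correlated at 0.13, -0.07 and -0.17 between same-numbered null and shDesmin libraries. The labels do not say whether these share an animal or batch, and with 3 libraries a group such correlations cannot settle it. A fit with the replicate number as a block called 39 members higher and 3 lower, the added call being Mrpl33 (0.38). Domain membership stayed at 5 with any overlap. The planned count test on recovered reads was not run. The smallest change called among members was 0.34 (Mrps17).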

Other observations

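Several of these genes share a start region with a neighbour on the other strand. A partner starting within 1000 bases was found for 17 of 56 members with a promoter in the RefSeq table (30.4%), and for 17.5% of 8584 tested genes. Of those 17 members, 6 rose and none fell on the authors' scaling (limma), beside 27.5% higher and 31.4% lower among all tested genes. Their median log2 change was 0.19, and 11 did not pass the test. Partners moved in either direction. Mrpl47 (0.39) and Ndufb5 (1.15), a subunit of respiratory complex I, both rose, as did Mrpl18 (0.47) and the chaperonin gene Tcp1 (0.30). Mrpl37 rose (0.68) while Cyb5rl on the other strand fell (-1.90). Mrpl41 (0.18) and Mrps18c (0.19) did not pass the test, and their partners Pnpla7 (-1.54) and Helq (-1.40) fell.

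Mrpl46, of the central protuberance, and Mrps11, of the small subunit platform, are such a pair with 233 bases between their start sites, and neither passed the test (0.10 and -0.01). Mrpl46 was at 4.98, 5.15 and 5.32 log2 CPM in null and at 5.20, 5.38 and 5.18 in shDesmin libraries, with the groups overlapping as for Mrps11. The region between the start sites (RefSeq, GRCr8 chr1:142117031-142117263, plus strand, the strand of Mrps11) holds 45.1% G and C. Its promoter activity was not measured. The region is shown because it lies between the annotated starts of both genes, with its TATAAA letters in capitals.
Mrps11 and Mrpl46: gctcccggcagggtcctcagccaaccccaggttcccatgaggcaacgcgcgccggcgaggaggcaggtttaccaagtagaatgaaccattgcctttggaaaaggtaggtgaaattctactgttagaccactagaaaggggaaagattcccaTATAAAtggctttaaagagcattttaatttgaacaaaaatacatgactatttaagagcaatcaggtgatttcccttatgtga
Over the 56 promoter windows of members the median share of G and C was 55.8%, and over those of tested genes it was 61.3%.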
